A study of Sus scrofa with 22 samples.

Results

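The trophectoderm of hatched pig blastocysts, from embryonic day 7 (E7) to E10, was represented by 55 of the 1647 single cells of this series. Its members were the cells that made up the submitters' group means for trophectoderm at E7, E8, E9 and E10, recovered by least squares from each deposited mean. There were 14 cells at E7, 23 at E8, 2 at E9 and 16 at E10. They were set against the later trophectoderm of E12 to E14 (54 cells), the trophectoderm of E6 blastocysts (75 cells), and the hypoblast (349 cells, E7 to E10) and epiblast (57 cells, E7 to E9) of the same days. All were cells of pig embryos, and the labels name no mutation or drug for these groups. RNA of single cells was read by a modified Smart-seq2 protocol, in which each cell carries a barcode within a shared library.

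The trophectoderm is the outer epithelium of the blastocyst, which pumps fluid into the cavity, takes up nutrients and later forms the chorion of the placenta. The pig blastocyst does not invade on hatching: it stays free in the uterine lumen, expands to a sphere and then elongates into a filament. Its trophectoderm releases oestrogens that signal the pregnancy to the mother, followed by interferons. Oestrogen is made from cholesterol in steps: CYP11A1 cleaves the cholesterol side chain, CYP17A1 makes androgens, CYP19A1 (aromatase) turns androgens into oestrogens, and HSD17B1 converts oestrone to the more active oestradiol.

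The 55 cells came from 7 libraries. Summing the counts of one group within one library gave 8 sums: libraries P8 (9 cells) and P9 (5 cells) at E7, P3 (6), P4 (14) and P5 (3) at E8, P17 (2) at E9, and P5 (7) and P6 (9) at E10. The 6 sums with at least 5 cells entered tests. Levels are given below for all 8 in this order, as counts scaled to 1000000 per sum (CPM), while the averages in the text and log2 differences rest on TMM-scaled sums (edgeR's correction for composition), so that an average can differ from the mean of the levels listed. A cell had 35512 to 469547 counts, with a median of 169290, and 4035 to 15798 detected genes. The 5 cells of P9 at E7 stood apart, with a median of 75643 counts and 13.2% mitochondrial counts. The 2 cells of P17 had 9.95%, while the medians of the other 6 sums lay between 2.47% and 3.82%. All 96 barcodes of the series recur in several libraries, and 15 of the 36 barcodes among these 55 cells were in more than 1 of their libraries. The labels do not say that libraries held separate embryos, so p-values measure only the spread between library sums. Most days came from different libraries, so day and library cannot be told apart, except in P5, which held both E8 and E10 cells, and P9, which held both E7 and E13 cells. Comparisons between days also share sums, so their results are not independent of each other.

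The labelled cell type was checked against its defining markers. GATA2 and GATA3, transcription factors of the trophoblast, had counts in 55 of 55 cells. PTGS2, the inducible cyclooxygenase of prostaglandin synthesis, had counts in 53 of 55 cells and CYP11A1 in 49 of 55. SOX2 and NANOG, pluripotency factors, had counts in 10 and 8 of the 55 trophectoderm cells, against 56 and 52 of the 57 epiblast cells. The trophectoderm marker list (11 of its 12 genes in the files) summed to 6029 to 8412 CPM in the 6 trophectoderm sums. It summed to 1015 to 2268 CPM in 9 hypoblast sums and 953 to 2059 CPM in 5 epiblast sums, so the lineages did not overlap. Counts of trophectoderm genes were also found outside it: GATA2 had counts in 254 of 349 hypoblast cells and CYP11A1 in 213 of 349, at a median depth of 169290 counts per cell in trophectoderm and 307769 in hypoblast.

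Against the hypoblast of the same libraries, most trophectoderm markers stood out in level. In the order of P8 and P9 at E7, P3 and P4 at E8, and P5 and P6 at E10, GATA2 (Sscrofa11.1 chromosome 13, 71981139 to 71997626) had 369.7, 935, 298, 288, 352 and 225 CPM in trophectoderm. The matching hypoblast sums had 10.9, 19.7, 7.79, 22.0, 33.7 and 31.7 CPM, all below the lowest trophectoderm value. GATA2 was higher in trophectoderm by 4.43 ± 0.36 on the log2 scale (SE, adjusted p = 1.94e-06, edgeR's quasi-likelihood test with the library as a block). PTGS2 (chromosome 9, 127850164 to 127858866) was higher by 5.28 ± 0.37 and CYP11A1 (chromosome 7, 59172829 to 59188479) by 4.21 ± 0.39. The sums of PTGS2 did not overlap between the lineages, while those of CYP11A1 did. CYP11A1 averaged 281 ± 213 CPM in trophectoderm and 15.6 ± 15.6 CPM in hypoblast (SD, n = 6 each). In trophectoderm of E7 alone it averaged 17.2 ± 1.72 CPM (SD, n = 2), so its level did not set these cells apart from hypoblast. In all, 10 of 11 trophectoderm markers were higher and 1 was lower, where 9.42% of 10652 genes tested were called higher, 11.4% lower and 20.8% in either direction. The cells were placed in lineages by the submitters, possibly from the same RNA, so these tests are not independent evidence of identity.

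The comparison with epiblast of the same libraries was smaller, with 3 sums of each. There 5.05% of 10082 genes tested were higher, 5.36% lower and 10.4% called in either direction, and 9 of 11 trophectoderm markers were higher and none was lower. GATA2 was higher than in epiblast by 4.78 ± 0.60 (adjusted p = 5.89e-06), PTGS2 by 4.77 ± 0.61 (adjusted p = 6.64e-06) and CYP11A1 by 3.39 ± 0.62 (adjusted p = 0.000414). CYP11A1 was no longer called under 3 of 10 alternatives, with adjusted p up to 0.241. Its sums overlapped here too, at 148 ± 226 CPM in trophectoderm and 15.8 ± 24.4 CPM in epiblast (SD, n = 3 each).

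**Figure D1:**
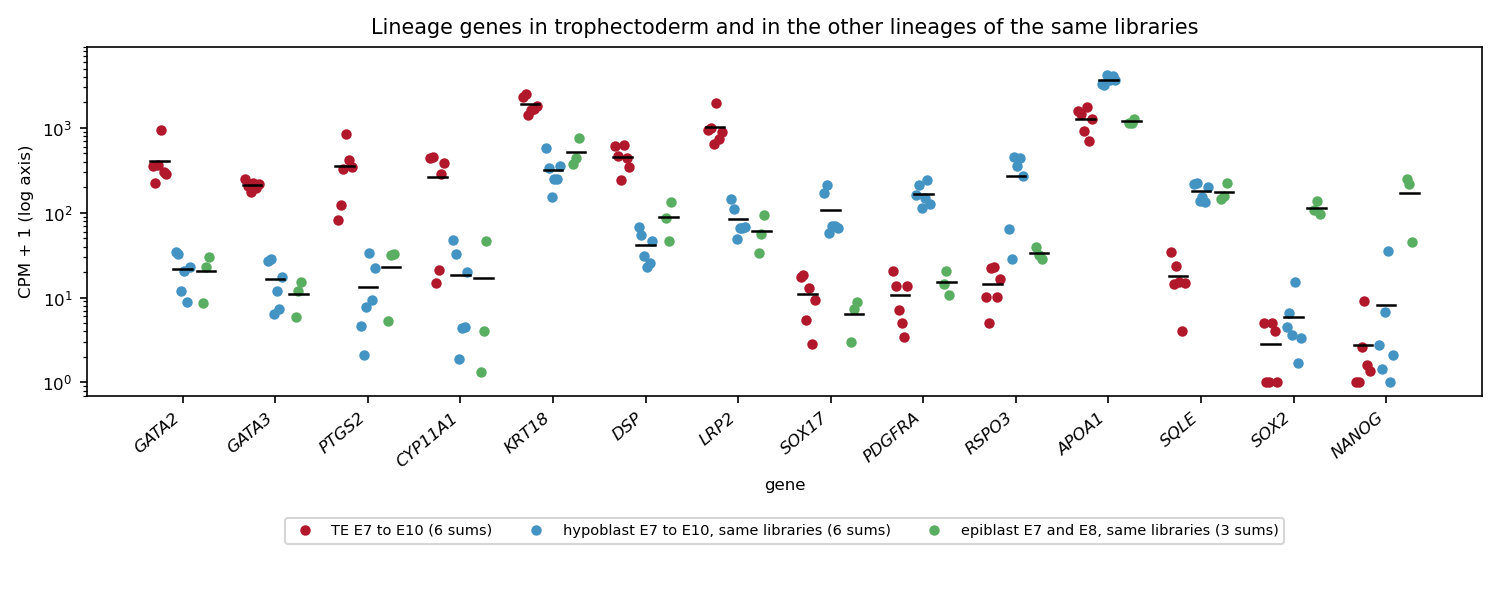
Levels of 14 genes in trophectoderm (left, 6 sums), hypoblast (6 sums) and epiblast (3 sums) of the same libraries, in CPM + 1 on a log axis; each point is 1 library sum and the line is the mean. GATA2 in trophectoderm lies at 225 to 935 CPM, above every sum of the other lineages shown.

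Levels of 4 steroid enzymes differed between these days. CYP11A1 had no count in the 75 cells of E6. It had 13.9 and 20.2 CPM at E7, 282, 389 and 362 CPM at E8, 119.8 CPM at E9, and 443 and 450.2 CPM at E10. Every E8 and E10 sum lay above every E7 sum. Over the 6 tested sums there were 2902 counts of CYP11A1 against 0 at E6, a level at least 2520-fold higher than the floor of 3 counts over the group (adjusted p = 4.61e-06). At E7 alone the 44 counts were at least 134-fold above that floor (adjusted p = 0.00416), a call lost under 4 of 11 alternatives, with adjusted p up to 0.245. E10 exceeded E7 by 4.81 ± 1.09 (adjusted p = 0.0154), a call lost under 5 of 11 alternatives with adjusted p up to 0.23. E8 against E7, at 4.47 ± 1.08, did not pass (adjusted p = 0.0921). Later CYP11A1 was uneven, with 419.9 CPM at E12, 145, 297, 346 and 237 CPM at E13, and 0 and 15.7 CPM at E14, the first of the E14 sums being 1 cell.

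HSD17B1 (chromosome 12, 20269468 to 20271349) had a low level already at E6 and its highest levels at E10. It had 12.4 and 7.50 CPM at E6, 89.0 and 52.6 CPM at E7, 326, 199 and 374 CPM at E8, 65.3 CPM at E9, and 939 and 1188 CPM at E10. All sums of E7 to E10 lay above both E6 sums, and E10 lay above all earlier days. The trophectoderm of E7 to E10 exceeded that of E6 by 4.5 ± 0.88 (adjusted p = 0.000931), and E10 exceeded E7 by 3.90 ± 0.91 (adjusted p = 0.0186). No adjacent step of HSD17B1 passed the test: E7 against E6 had 2.56 ± 0.87, E8 against E7 had 1.92 ± 0.84 and E10 against E8 had 1.98 ± 0.83, with adjusted p of 0.136, 0.492 and 0.65.

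CYP17A1 (chromosome 14, 113805616 to 113820445) and CYP19A1 (chromosome 1, 120596235 to 120627806) were found at E10 and hardly before it. CYP17A1 had 0.408 and 0 CPM at E7, 0, 0 and 11.4 CPM at E8, 0 CPM at E9, and 294 and 538 CPM at E10. CYP19A1 had 0.408 and 0 CPM at E7, 0, 0 and 1.91 CPM at E8, 0 CPM at E9, and 84.2 and 299 CPM at E10. For both genes the E10 sums stood above every earlier sum. The E9 sum of 2 cells allows up to 16.3 CPM of CYP17A1, the level of 3 counts, which covers counting error only. In the tested sums, E10 had 1190 counts of CYP17A1 against 0 at E8, at least 577-fold higher (adjusted p = 0.043), and 524 counts of CYP19A1 against 0, at least 254-fold higher (adjusted p = 0.033). The CYP17A1 call was lost under 9 of 13 alternatives, with adjusted p up to 0.579, and the CYP19A1 call under 6 of 13, with adjusted p up to 0.612. Both were lost when any of P3, P4, P5 or P6 was left out.

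Library P5 gave this contrast without a change of library, though from 3 cells at E8 that were too few for the tests. CYP17A1 had 294 CPM in its 7 trophectoderm cells of E10, against 11.4 CPM in the 3 of E8. The other P5 groups had CYP17A1 at 20.6 CPM in hypoblast of E10, 7.30 CPM in hypoblast of E8 and 6.35 CPM in epiblast of E8, so the E8 trophectoderm value lay among those of other lineages. CYP19A1 had 84.2 CPM in P5 at E10, against 1.91 CPM at E8. HSD17B1 had 939 CPM in P5 at E10, against 374 CPM at E8. The direction in P5 was that of the comparison across libraries for all 3 genes, but the P5 sum of E10 entered both. The shared direction is therefore not independent of that comparison.

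**Figure D2:**
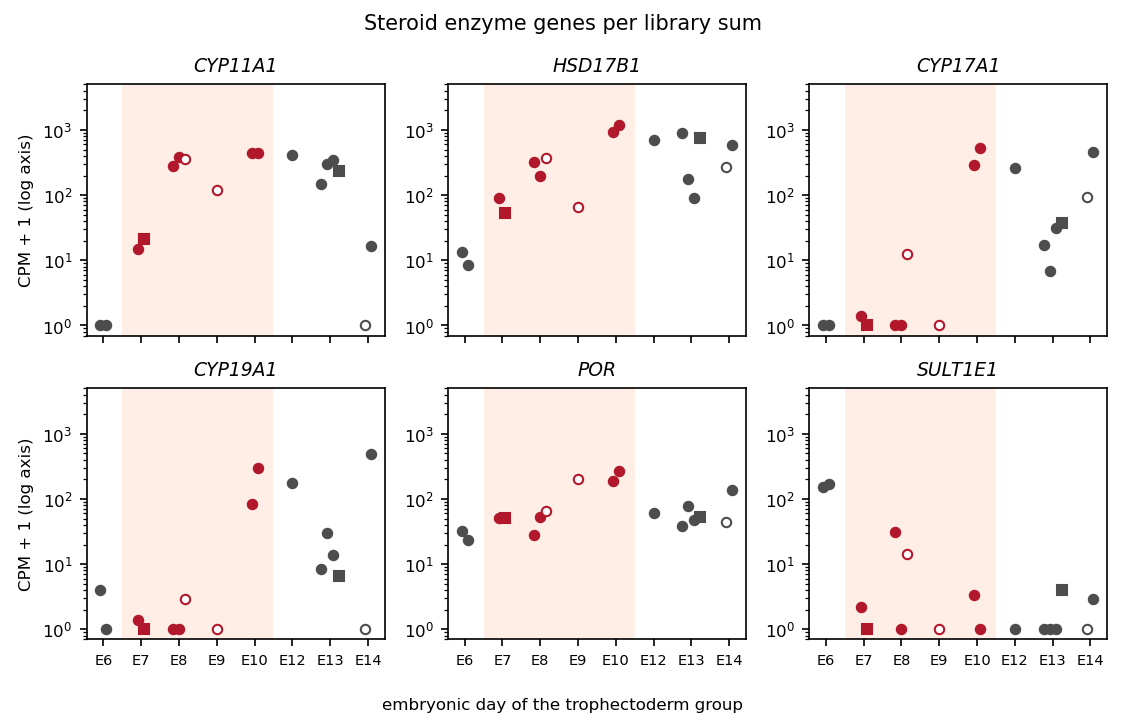
Levels of 6 steroid genes in each library sum of trophectoderm from E6 to E14, in CPM + 1 on a log axis; the shaded red points are E7 to E10, open symbols are sums of fewer than 5 cells and squares are library P9. CYP11A1 has no count at E6 and 443 and 450.2 CPM at E10, CYP17A1 and CYP19A1 stand at 294 and 538, and 84.2 and 299 CPM, at E10, and SULT1E1 is highest at E6.

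Single cells showed how widely these enzymes were shared. All 16 cells of E10 had counts of CYP17A1, from 67.2 to 1643 CPM, and of HSD17B1, from 515 to 2308 CPM. CYP19A1 had counts in 14 of the 16 cells, with a median of 45.1 CPM in P5 and 90.3 CPM in P6, and a highest cell at 851 CPM. CYP11A1 had counts in 9 of 14 cells at E7, with medians of 3.78 CPM in P8 and 8.08 CPM in P9, and in 22 of 23 cells at E8. Cells of a library are not replicates, so no test was made over them.

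**Figure D3:**
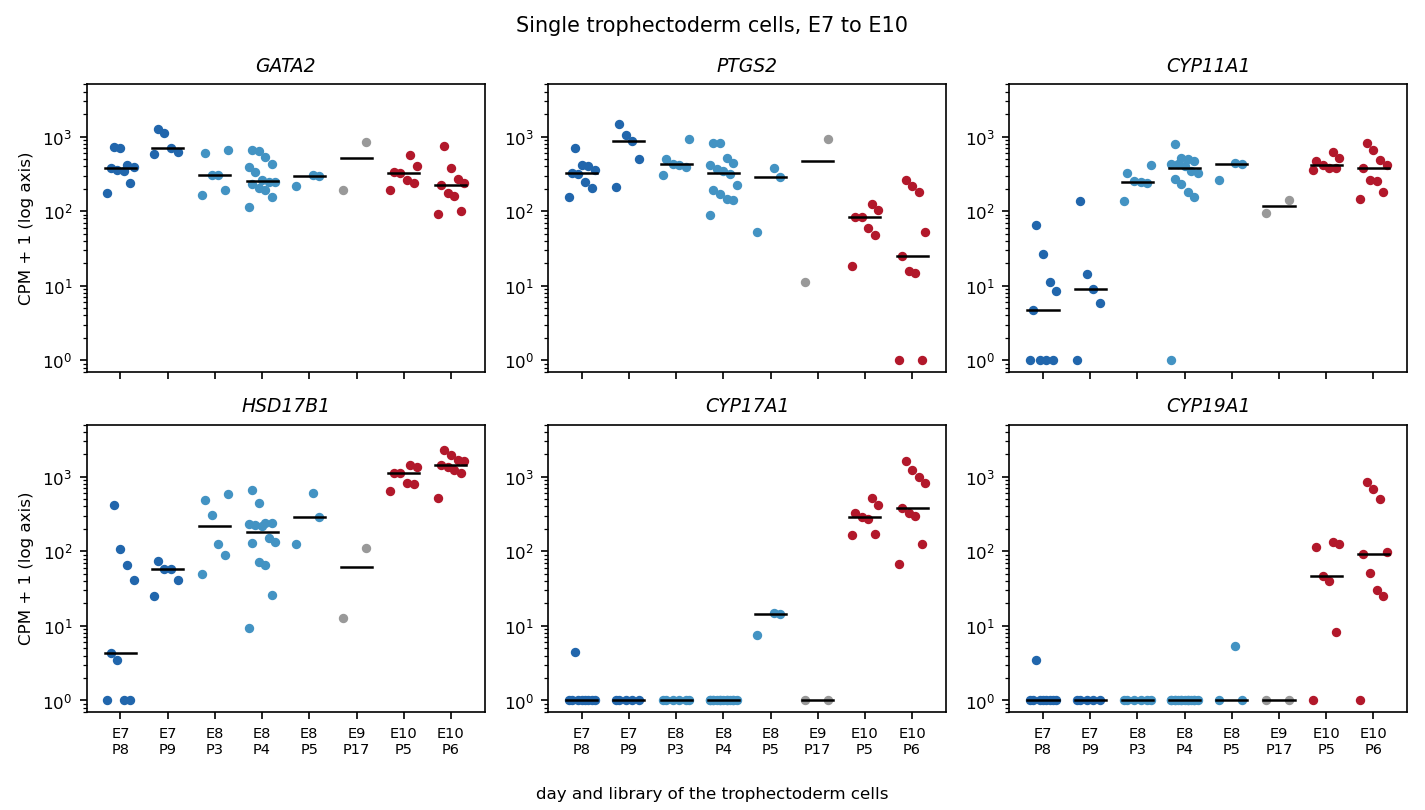
Single cells of E7 to E10 by day and library for 6 genes, in CPM + 1 on a log axis; each point is 1 cell and the line is the median. CYP17A1 has counts in all 16 cells of E10 and in none of the 14 cells of P4 at E8, while GATA2 has counts in all 55 cells.

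Of the steroid list, 14 genes were tested across the days. At E10 5 were higher than at E7 and none was lower, where 0.629% of 23045 genes were higher, 0.351% lower and 0.981% called in either direction, and the list's median log2 difference was 1.57 against 0.00 over all genes. Besides CYP11A1, CYP17A1, CYP19A1 and HSD17B1 this was POR, the reductase that passes electrons to microsomal P450 enzymes. POR had 49.4 and 50.6 CPM at E7, 26.9, 51.4 and 64.8 CPM at E8, 201 CPM at E9, and 187 and 269 CPM at E10, and the sums of E9 and E10 lay above the rest. It was higher at E10 by 2.26 ± 0.56 against E7 and by 2.48 ± 0.56 against E8 (adjusted p = 0.0295 and 0.0444). HSD11B2, which inactivates cortisol and was outside the list, had 397 and 470.0 CPM at E10, against 1.22 and 2.02 CPM at E7 (log2 difference 8.23 ± 1.87, adjusted p = 0.0153). It was still at 1.22 to 8.45 CPM in the 3 sums of E8.

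SULT1E1, the sulfotransferase that inactivates oestrogens, ran the other way. It had 1.22 and 0 CPM at E7, 30.0, 0 and 13.3 CPM at E8, 0 CPM at E9, and 2.31 and 0 CPM at E10, against 149.7 and 171 CPM at E6. No sum of E7 to E10 reached the E6 level, and SULT1E1 was lower than at E6 (log2 difference -6.20 ± 1.19, adjusted p = 0.000827). Of the 14 genes, 2 were higher than at E6 and 1 was lower, where 1.17% of 23045 genes were higher, 3.94% lower and 5.1% called in either direction. STAR, which carries cholesterol into mitochondria of steroid-making glands, averaged 50.5 ± 24.7 CPM at E7 to E10 and 43.7 ± 3.02 CPM at E6 (SD, n = 6 and 2) and was not called.

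Against the hypoblast, 9.42% of 10652 genes tested were higher, 11.4% lower and 20.8% called in either direction. Of 10 tested steroid genes 7 were higher and none was lower, with a list median of 1.21 against -0.13 for all genes. They included HSD17B1 (3.47 ± 0.47), FDX1, the ferredoxin that supplies electrons to CYP11A1 (1.09 ± 0.26), its reductase FDXR (2.24 ± 0.28), POR (1.33 ± 0.31) and STARD3, a cholesterol carrier of late endosomes (1.52 ± 0.35). Against epiblast, 5.05% of 10082 genes tested were higher, 5.36% lower and 10.4% called in either direction. Of 10 steroid genes 3 were higher, CYP11A1, HSD17B1 and FDX1, and 1 was lower. The lower one was NR5A2, a nuclear receptor of steroid and pluripotency genes, with 0.530 ± 0.460 CPM in trophectoderm and 58.6 ± 26.0 CPM in epiblast (SD, n = 3 each).

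Most genes of cholesterol synthesis and uptake were lower in these cells than in hypoblast. Of 17 tested, 12 were lower than in hypoblast and none was higher, with a list median of -2.07. Among all 10652 genes tested, 11.4% were lower, 9.42% higher and 20.8% called in either direction. SQLE, the squalene epoxidase, averaged 17.6 CPM in trophectoderm and 169 CPM in hypoblast (log2 difference -3.41 ± 0.35). Against epiblast 4 of 16 were lower and none was higher, where 5.36% of 10082 genes were lower, 5.05% higher and 10.4% called in either direction. Against E6, 4 of 17 were lower, SQLE, IDI1, NSDHL and MSMO1, and 1 was higher, SCARB1, the receptor for high-density lipoprotein. In that comparison 3.94% of 23045 genes were lower, 1.17% higher and 5.1% called in either direction. SQLE had 22.4 and 14.2 CPM at E7, 3.06, 14 and 43.8 CPM at E8, 10.9 CPM at E9, and 33.4 and 13.5 CPM at E10, against 186 and 152 CPM at E6. The groups did not overlap, and SQLE was lower than at E6 (log2 difference -3.66 ± 0.46, adjusted p = 8.46e-07). At E12 to E14, 7 of the 17 were higher than at E7 to E10 and none was lower, where 6.23% of 23045 genes were higher, 2.6% lower and 8.83% called in either direction.

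PTGS2, a cyclooxygenase of prostaglandin synthesis, had counts in every trophectoderm sum from E6 on. It had 326 and 852 CPM at E7, 421, 349 and 257 CPM at E8, 436 CPM at E9, and 81.9 and 123 CPM at E10, against 419 and 326 CPM at E6. Both E10 sums lay below all earlier ones, but E10 against E7, at -2.37 ± 1.15, did not pass (adjusted p = 0.471). PTGS2 was at 718 CPM at E12, and at 541, 66.1, 69.6 and 640.1 CPM in the 4 sums of E13. PTGES, prostaglandin E synthase, had 446 to 1362 CPM across the 8 sums of E7 to E10, against 1513 and 1327 CPM at E6, and was higher than in hypoblast by 3.06 ± 0.26. PTGES was lower at E12 to E14 than at E7 to E10 (log2 difference -2.76 ± 0.53, adjusted p = 0.00029).

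LTA4H, the hydrolase that makes leukotriene B4, changed within these days. It had 11 and 4.05 CPM at E7, 92.9, 70.2 and 99.1 CPM at E8, 114 CPM at E9, and 83.6 and 192 CPM at E10. Every sum from E8 on lay above both E7 sums. LTA4H was higher at E8 than at E7 by 3.25 ± 0.67 (adjusted p = 0.0453) and at E10 than at E7 by 4.01 ± 0.68 (adjusted p = 0.000547). It was the 1 gene called of the 18 prostaglandin and leukotriene genes tested in each of these comparisons. Among all 23045 genes tested, 0.0304% were called for E8 against E7 and 0.981% for E10 against E7.

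Few genes passed the test between neighbouring days. At E8, 4 genes were higher and 3 were lower than at E7, which is 0.0174% and 0.013% of 23045 genes tested and 0.0304% in all, with 2042 genes at an unadjusted p under 0.05. Besides LTA4H the higher genes were KDSR, an enzyme of ceramide synthesis, IVNS1ABP, a kelch protein that binds actin, and MRPL57, a mitochondrial ribosomal protein named after its value was seen. KDSR had 61.1, 45.5 and 24.8 CPM at E8, against 3.67 and 4.05 CPM at E7. TET1, which oxidises 5-methylcytosine, had 59.9, 40.8 and 47.6 CPM at E8, against 349 and 540.2 CPM at E7, with no overlap. TET1 had 356 and 359 CPM at E6 as well, and stood at 70.8 CPM at E9 and 81.3 and 152 CPM at E10. The log2 difference of TET1 between E8 and E7 was -3.0 ± 0.56 (adjusted p = 0.0173). Also lower at E8 were AIF1L, an actin-binding protein, and the zinc-finger gene ZNF12, which was named after its value was seen. Of these 7 calls none was left without library P3 or without P4 and 2 without P9, while 1056 genes were called without P8.

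At E10, 25 genes were higher and 5 were lower than at E8, 0.108% and 0.0217% of those tested and 0.13% in all. All 25 were also higher, and 4 of the 5 also lower, in the E10 cells of library P5 than in its 3 E8 cells, although the P5 sum of E10 entered both. These counts take any difference in sign: within P5, CCNI had 50.7 CPM at E10, against 49.5 CPM at E8, and ISYNA1 330 CPM at E10, against 288 CPM at E8, where their tested log2 differences were 2.44 and 2.07. SLC37A2, a sugar-phosphate exchanger of the endoplasmic reticulum, had 788 and 807 CPM at E10, against 0, 0 and 28.6 CPM at E8. In the tested sums that was 2387 counts of SLC37A2 against 0, at least 1157-fold higher (adjusted p = 0.0068). GCLC, which limits glutathione synthesis, was higher by 4.80 ± 0.86, SLC15A2, a peptide transporter, by 6.25 ± 1.34, and UCP2, a mitochondrial carrier, by 4.38 ± 0.92. NQO1, a quinone reductase, had 37.5 and 55.4 CPM at E10, against 0, 0 and 3.81 CPM at E8. KLHL5, a kelch protein, was lower (log2 difference -4.17 ± 0.89). HAND1, a transcription factor of trophoblast and mesoderm, had 21.3 and 63.3 CPM at E10, against no count in the 3 sums of E8 (adjusted p = 0.0468). Library P6, with the higher value, also held 33 cells grouped as mesoderm of E11. The part of RNA from these cells was not tested. With the library as a block, 7 genes were higher and 3 lower. The tested trophectoderm sums of E8 and E10 shared no library. That fit therefore took library differences from other cell groups, such as the hypoblast of E8 and E10 in P5, and paired no trophectoderm sums. Leaving out a library left 0 calls without P3, 1 without P4, 9 without P5 and 1 without P6.

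Between E10 and E7 the count was larger, with 145 genes higher at E10 and 81 lower, 0.629% and 0.351% of 23045 genes tested and 0.981% in all. ENPP3, an ectonucleotidase of the cell surface, had 0.408 and 0 CPM at E7, 238, 289 and 558 CPM at E8, 245 CPM at E9, and 803 and 985 CPM at E10. All sums from E8 to E10 lay far above E7, and ENPP3 was higher at E10 than at E7 by 11.29 ± 2.04 (adjusted p = 0.00161). SLC16A9, a monocarboxylate transporter family member, had 529 and 737 CPM at E10, against 2.04 and 0 CPM at E7. KRT7, a keratin of simple epithelia, had 495 and 447 CPM at E10, against 14.3 and 12.1 CPM at E7, higher by 5.12 ± 1.01. KRT7 was the 1 gene called of the 19 keratin and junction genes tested. DUSP6, a feedback inhibitor of ERK signalling, was higher by 5.60 ± 1.06, the glucose transporter SLC2A3 by 3.51 ± 0.52, and RDX, which links actin to the membrane, by 2.54 ± 0.35.

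Genes lower at E10 than at E7 included PRKCB, a protein kinase C, with 1.15 and 0 CPM at E10, against 130.2 and 99.1 CPM at E7. The creatine transporter SLC6A8 had 55.4 and 22.9 CPM at E10, against 342 and 989 CPM at E7, and ATP13A2, a lysosomal polyamine transporter, 27.1 and 13.5 CPM at E10, against 295 and 937 CPM at E7. The pluripotency factor POU5F1 had 20.2 and 10.3 CPM at E10, against 100.4 and 170.0 CPM at E7 (log2 difference -3.08 ± 0.65, adjusted p = 0.00777). DNMT3A, a de novo DNA methyltransferase, was lower too (log2 difference -2.80 ± 0.70). It averaged 19.5 ± 7.62 CPM at E10 and 141 ± 134 CPM at E7 (SD, n = 2 each), so the E7 sums lay far apart. RGL3 and ODAD3 were also called lower, but had equal counts in 34 of 36 sums, so their reads could not be told apart and both are uncertain. Against 226 genes called with all libraries, 96 were called without library P5, 36 without P6 and 60 without P9, while without P8 514 genes were higher and 223 lower.

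**Figure D4:**
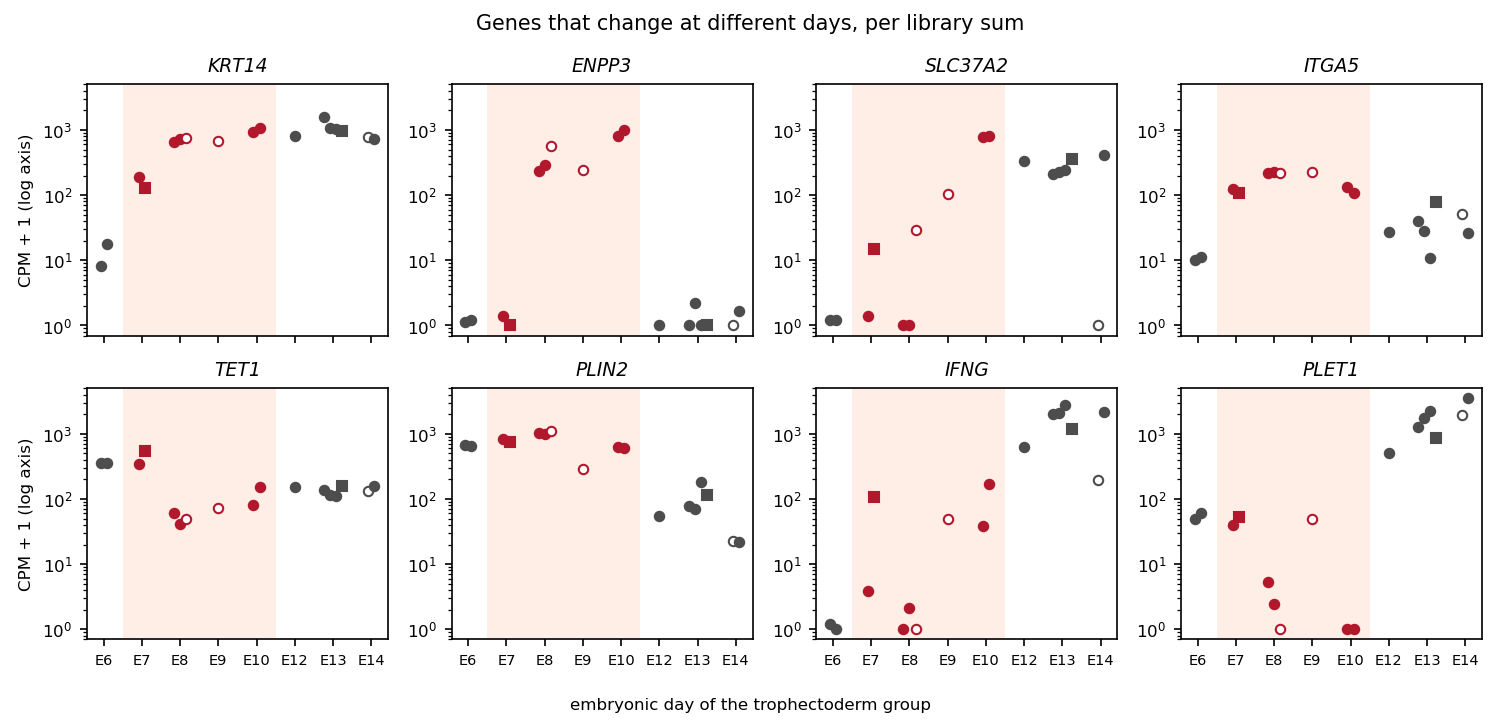
Levels of 8 genes in each library sum of trophectoderm from E6 to E14, in CPM + 1 on a log axis; the shaded red points are E7 to E10, open symbols are sums of fewer than 5 cells and squares are library P9. ENPP3 stands at 238 to 985 CPM from E8 to E10 and at or near 0 on the other days, ITGA5 is highest from E7 to E10, TET1 is lower from E8 on than at E7, and PLET1 and IFNG are highest after E10.

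Set against E6, the trophectoderm of E7 to E10 had 269 genes higher and 907 lower, 1.17% and 3.94% of 23045 genes tested and 5.1% in all. GATA2 averaged 421 ± 216 CPM at E7 to E10 and 309 ± 19.5 CPM at E6, and PTGS2 372 ± 248 CPM at E7 to E10 and 481 ± 79.3 CPM at E6 (SD, n = 6 and 2). Neither was called, nor were GATA3, KRT8 and KRT18. Of the 22 trophectoderm transcription factors tested, 1 was higher, YAP1, the Hippo effector (2.01 ± 0.54), and 1 was lower, GRHL2. YAP1 was not called without library P9 (adjusted p = 0.091). At E7 alone, 86 genes were higher and 88 lower than at E6, 0.373% and 0.382% of those tested and 0.755% in all, but 6 genes were called without P9, 27 without P14, 30 without P15 and 2163 without P8.

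KRT14, a keratin of stratified epithelia, was one of the genes that differed most. It had 186 and 127 CPM at E7, 643, 720.0 and 758 CPM at E8, 669.7 CPM at E9, and 924 and 1086 CPM at E10, against 7.13 and 16.9 CPM at E6. No sums overlapped, and KRT14 was higher than at E6 by 5.10 ± 0.79 (adjusted p = 2.45e-05) and by 5.21 ± 0.82 without P9. The desmosomal plakin DSP was higher by 1.89 ± 0.43, the 1 gene called of 19 in the keratin and junction list. Over all 23045 genes tested, 1.17% were higher and 5.1% were called in either direction. Subunits of the epithelial sodium channel, which takes up sodium, were also higher. SCNN1A was higher by 5.79 ± 1.25 (adjusted p = 0.00281), and SCNN1B had 616 counts against 0, at least 535-fold higher. SLC2A3 was higher by 2.85 ± 0.45 and RDX by 2.44 ± 0.31.

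Of the 21 genes of adhesion and matrix, 7 were higher than at E6 and none was lower, with a list median of 1.26 against 0.00 for all genes. Over all 23045 genes tested, 1.17% were higher, 3.94% lower and 5.1% called in either direction. ITGA5, a chain of the fibronectin receptor, had 124 and 107 CPM at E7, 221, 225 and 219 CPM at E8, 229 CPM at E9, and 130.3 and 107 CPM at E10, against 9.20 and 10.1 CPM at E6. It was higher than at E6 by 3.65 ± 0.57 (adjusted p = 3.05e-05). At E12 to E14 ITGA5 had 9.94 to 78.0 CPM, below every sum of E7 to E10. The other 6 were FN1 (fibronectin), LAMA1 and LAMC1 (laminin chains), COL4A1 and COL4A2 (type IV collagen) and NID1 (nidogen), proteins of the extracellular matrix, with FN1 higher by 5.24 ± 0.90 and NID1 by 5.62 ± 0.87. Apolipoproteins were higher too, APOA1 by 6.55 ± 1.02, APOC3 by 6.84 ± 1.43 and APOE by 3.55 ± 0.76, and so were 8 of 12 hypoblast markers, with none lower.

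The 2 libraries of E6 trophectoderm held no hypoblast cells, while P3, P4, P5, P6, P8, P9 and P17 all did. The hypoblast marker list, all 12 in the files, summed to 922 to 2495 CPM in the trophectoderm of E7 to E10, against 171 to 199 CPM at E6. At E12 to E14 it summed to 676 to 2138 CPM, overlapping E7 to E10, although the libraries of those days other than P9 held no cells grouped as hypoblast; they held cells grouped as endoderm. It summed to 5564 to 6999 CPM in hypoblast and 1373 to 2410 CPM in epiblast, so trophectoderm and epiblast overlapped. In the 3 pairs of sums from the same libraries, APOA1 averaged 1335 ± 427 CPM in trophectoderm and 1217 ± 40.9 CPM in epiblast, and FN1 209.8 ± 18.7 CPM in trophectoderm and 219 ± 9.19 CPM in epiblast (SD, n = 3 each). Neither was called between them, with log2 differences of 0.08 ± 0.38 and -0.07 ± 0.46, and nor were LAMA1 (-0.14 ± 0.71), COL4A1 (-0.03 ± 0.53) and NID1 (0.08 ± 0.63). ITGA5 differed: it was higher than in epiblast by 1.56 ± 0.48 (adjusted p = 0.0377). Over the 55 cells, counts of APOA1 ran from 113 to 878 while total counts ran from 35512 to 469547. Its CPM correlated with the total at a Spearman rho of -0.889, a description in which both share the cell's depth. The rho was -0.604 for KRT18, -0.381 for KRT8, -0.233 for GATA2, -0.0784 for GATA3 and 0.139 for CYP11A1. For the other apolipoproteins examined it was -0.193 (APOE) and -0.0915 (APOC3). SOX17, an endoderm factor, had counts in 38 of 55 trophectoderm cells, 338 of 349 hypoblast cells and 43 of 57 epiblast cells, and was not called against E6 without P9 (adjusted p = 0.0632). The part of RNA from hypoblast cells in these differences was not tested.

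FOLR1, a folate receptor, was among the genes lower than at E6. It had 554 and 291 CPM at E7, 199, 166 and 154 CPM at E8, 21.8 CPM at E9, and 84.2 and 26.9 CPM at E10, against 1096 and 1198 CPM at E6. The groups did not overlap, and the log2 difference of FOLR1 was -3.10 ± 0.65 (adjusted p = 0.00181). IL6, a cytokine, had 16.2 CPM in P9 at E7 and 0 in the other 7 sums, against 59.3 and 57.5 CPM at E6. ARG1, arginase, had 95.9 CPM in P8 at E7 and 0 to 21.0 CPM from E8 to E10, against 304 and 293 CPM at E6. Also lower were the peptide transporter SLC15A1 (-5.76 ± 0.83), the proton pump subunit ATP6V0D2 (-5.72 ± 0.73), and 2 genes induced by hypoxia, EGLN3 (-5.75 ± 0.82) and BNIP3 (-2.41 ± 0.37). POU5F1 was lower (-3.21 ± 0.43), the 1 gene called of 11 epiblast markers, where 3.94% of 23045 genes were lower and 5.1% called in either direction. With DESeq2's size factors in place of TMM, 350 genes were higher and 505 lower, so that 40.9% of calls were higher, against 22.9% with TMM. Without library P15 308 genes were called, without P14 455, without P5 713, without P6 774 and without P8 2239, against 1176 with all.

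Set against the trophectoderm of E7 to E10, that of E12 to E14 had 1436 genes higher and 600 lower. GATA2, PTGS2 and CYP11A1 were not called, with log2 differences of 0.08 ± 0.56, 0.29 ± 0.70 and -0.23 ± 0.60. PLET1, a surface protein of early trophoblast in the mouse, was at 512 to 3606 CPM in all 7 later sums, against 0 to 52.6 CPM from E7 to E10, and no sums overlapped. IFNG, the interferon gamma that pig conceptuses secrete, had 618 CPM at E12, 2016, 2069.8, 2744 and 1178 CPM at E13 and 198 and 2151 CPM at E14. From E7 to E10 IFNG had 2.86 and 107 CPM at E7, 0, 1.10 and 0 CPM at E8, 49.0 CPM at E9, and 38.1 and 167 CPM at E10, all below the later sums. IFNG was higher at E12 to E14 by 6.50 ± 1.00 (adjusted p = 1.04e-05) and by 7.78 ± 1.24 without P9. In P9, which also held E13 trophectoderm with 1178 CPM, IFNG had 107 CPM in E7 trophectoderm, 38.1 CPM in E7 hypoblast and 40.6 CPM in E7 epiblast. At E10 IFNG had counts in 6 of 7 cells of P5 and 2 of 9 cells of P6.

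At E12 to E14, 6.23% of 23045 genes tested were higher, 2.6% lower and 8.83% called in either direction. Of 24 genes of BMP, WNT and Nodal signalling, 9 were higher and none was lower, with a list median of 1.6 against 0.01 for all genes. Among them were the BMP target ID1 (2.7 ± 0.54) and the ligand WNT7A (4.17 ± 1.03). HAND1 was higher by 8.48 ± 0.98 and the cyclin CCND1 by 5.50 ± 0.71. The fitted value of HAND1 averages over days, and the tested sums of E8 held no count of it. Its averages were 618.9 CPM at E12 to E14 and 17.96 CPM at E7 to E10, a smaller difference than the fitted one. The other fitted differences between these periods also average over days. PAG6, of the pregnancy-associated glycoproteins, was higher by 11.80 ± 1.6, but this gene family has near-identical copies, so its value is uncertain. Of 17 protease and inhibitor genes 7 were higher and 2 lower, SERPINE2 and CTSD. The mesoderm marker list summed to 412 to 1058 CPM at E12 to E14, against 3.67 to 99.7 CPM at E7 to E10, and 4 of its 12 genes were higher, HAND1, VIM, MESP1 and LEF1, while 8 were not called. HAND1, which trophoblast also expresses, made up most of this sum, with 392 to 877 CPM at E12 to E14. The uterine marker list (9 of 12 genes in the files) summed to 8.96 to 389 CPM at E12 to E14, against 0.791 to 60.6 CPM at E7 to E10. The epiblast marker list (11 of 12 genes in the files) summed to 1036 to 2022 CPM at E12 to E14, against 191 to 429 CPM at E7 to E10. Of its genes DPPA5, DNMT3B and ETV4 were higher, DPPA2 was lower and the others were not called. DPPA5 averaged 1104 CPM at E12 to E14 and 58.8 CPM at E7 to E10. The libraries of E12 to E14 trophectoderm also held cells grouped as ectoderm, or in P9 as epiblast of E7. The part of RNA from other cell types in these differences was not tested.

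Of 20 genes of endocytosis and lipid uptake, 3 were lower at E12 to E14 than at E7 to E10, PLIN2, LRP2 and the fatty-acid binding protein FABP3. In the same list 2 were higher, APOB and RBP4. Over all 23045 genes tested, 2.6% were lower, 6.23% higher and 8.83% called in either direction. PLIN2, which coats lipid droplets, had 20.5 to 179.6 CPM over the 7 later sums, against 283 to 1126 CPM over the 8 sums of E7 to E10, with no overlap. Its log2 difference at E12 to E14 was -4.04 ± 0.34 (adjusted p = 1e-11). Also lower at E12 to E14 were NAAA, an acid amidase of fatty-acid ethanolamides (-6.35 ± 0.66), ACSL6, a long-chain acyl-CoA synthetase (-5.88 ± 1.05), and LRP2, the endocytic receptor megalin (-1.95 ± 0.41). Further genes lower at E12 to E14 were the nucleoside transporter SLC28A3 (-7.76 ± 1.58), the ATP-gated channel P2RX1 (-10.01 ± 1.53), the water channel AQP3 (-3.0 ± 0.53) and the nuclear receptor ESRRB (-9.23 ± 1.58). Of 19 keratin and junction genes 4 were lower, KRT18 and the desmosomal DSP, DSG2 and DSC2, and 2 were higher, KRT7 and CLDN3. Without library P12 1212 genes were called and without P6 1293, against 2036 with all.

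CYP17A1 and CYP19A1 were called higher at E12 to E14, by 6.66 ± 1.51 and 6.61 ± 1.39, but these fitted values average over days, and E7 and E8 hold almost no counts. The average of CYP17A1 ran the other way, with 138 CPM at E12 to E14 and 153 CPM at E7 to E10, while CYP19A1 averaged 119.9 CPM at E12 to E14 and 72.5 CPM at E7 to E10. By day, CYP17A1 was at 264 CPM at E12, 16.2, 5.96, 30.6 and 36.7 CPM at E13, and 91.5 and 467 CPM at E14. Its E13 sums all lay below both E10 sums.

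E12 set against E10 had 1 sum of 9 cells at E12 and no test. ENPP3 had 0 counts at E12, against 2637 counts and 879.6 CPM at E10. PLET1 had 512 CPM at E12 and no count at E10, and CTBS, a chitobiase of glycoprotein breakdown, 647 CPM at E12 and 2.67 CPM at E10. PPARG, a nuclear receptor of lipid metabolism, had 77.2 CPM at E12 and 1.00 CPM at E10. These genes were thus found almost wholly on one side of the gap between the days. NAAA had 12.9 CPM at E12 and 284 CPM at E10, and the zinc transporter SLC30A2 3.92 CPM at E12 and 196 CPM at E10.

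Epithelial junctions and endocytosis also separated these cells from the hypoblast. Of 18 keratin and junction genes, 10 were higher and 1 lower, CLDN6, with a list median of 1.07. Over all 10652 genes tested, 9.42% were higher, 11.4% lower and 20.8% called in either direction. The desmosomal cadherin DSC2 was higher by 4.31 ± 0.27, the plakophilin PKP2 by 4.07 ± 0.34, DSP by 3.68 ± 0.28, KRT18 by 2.80 ± 0.21 and E-cadherin CDH1 by 2.89 ± 0.25. Of 17 tested trophectoderm transcription factors, 9 were higher, among them TFAP2A (3.95 ± 0.37), CDX2 (3.42 ± 0.61) and DLX3 (3.93 ± 0.46). TEAD4, a factor of trophectoderm fate in the mouse, and ID2 were lower, TEAD4 with 45.8 CPM in trophectoderm and 121 CPM in hypoblast. LRP2, with 1091 CPM in trophectoderm and 77.4 CPM in hypoblast, its adaptor DAB2 and PLIN2 were the 3 genes of endocytosis and lipid uptake that were higher. Of the 13 tested, 9 were lower, the apolipoproteins among them.

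The proton pump subunit ATP6V0A4 was among the genes higher than in hypoblast. It had 100.3 ± 34.6 CPM in trophectoderm and 1.27 ± 0.831 CPM in hypoblast (SD, n = 6 each), a log2 difference of 6.34 ± 0.45. NAAA was higher by 5.11 ± 0.28, the cathepsin CTSD by 2.71 ± 0.24 and IGF2R, the receptor that carries enzymes to lysosomes, by 3.75 ± 0.35. Of 17 matrix and adhesion genes 13 were lower, among them ITGA5 (-0.65 ± 0.21) and the integrin chain ITGB3 (-3.41 ± 0.63), and ITGA6 alone was higher. Among all 10652 genes tested, 11.4% were lower, 9.42% higher and 20.8% called in either direction.

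Several of these genes were also higher than in epiblast. LRP2 was higher by 4.25 ± 0.52, ATP6V0A4 by 6.0 ± 0.75, CTSD by 2.64 ± 0.43 and the surface peptidase DPP4 by 5.51 ± 0.91. Among all 10082 genes tested against epiblast, 5.05% were higher, 5.36% lower and 10.4% called in either direction. Of 18 transcription factors 7 were higher and none was lower, and of 18 keratin and junction genes 8 were higher and none was lower. Of 9 epiblast markers tested 6 were lower, SOX2 (-7.79 ± 0.97), NANOG (-6.21 ± 0.71), TDGF1, DPPA2, DNMT3B and POU5F1. MBP was higher by 6.88 ± 1.15, with 76.9 ± 115 CPM in trophectoderm and 0.511 ± 0.461 CPM in epiblast (SD, n = 3 each). Without library P8, 145 genes were higher and 157 lower than in epiblast, against 509 and 540 with it.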

How the data were processed

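Single-cell RNA-seq libraries of pig embryos were deposited as tables of raw counts per gene and cell, and as a table of log2 group means and SDs made by the authors. Per the submitters' processing notes, STAR 2.7.1a, featureCounts 1.6.4 and UMI-tools were used with build Sscrofa11.1. Cells were assigned to the 39 groups by least squares of each deposited mean on log2(CPM/10 + 1); recomputed means lay within 0.001 of the deposited ones for at least 93.0% of genes. The 92 spike-ins (1.80% of counts) were left out. Positions and names are from RefSeq.

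Counts were summed per library and group. Sums of at least 5 cells were tested with edgeR 4.0.16 (quasi-likelihood, TMM, filterByExpr, Benjamini-Hochberg adjusted p, threshold 0.05), with 65 sums and 23045 genes for stages and with the library as a block for lineages; SE is |log2 difference|/√F. Alternatives were DESeq2 1.42.0, its size factors, no filter, other cell minima and leaving out each library. Intervals and floors cover counting error only.

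The genes named were, per comparison and direction, the 12 called genes with the largest log2 difference, a level of 50 CPM or more on the higher side and every sum in that direction, beside GATA2, PTGS2, CYP11A1 and members of 20 gene lists and 6 marker lists. Members and lists were chosen with earlier results of these data known. The scripts were tested on simulated data.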

Additional observations from a re-analysis of the deposited data

Results flagged for a closer look

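Of 67 groups of library sums examined for a sum far from the others, 10 were marked. The rule's rate of about 1 in 20 is for normally spread values of the same kind. The marked groups pooled sums of E7, E8 and E10, so that rate need not hold and an excess over chance was not tested. In 5 of the 10 the sum far from the rest was library P9 at E7, the sum of 5 cells with 13.2% mitochondrial counts. GATA2 had 935 CPM in P9 at E7, with the next of the 6 sums at 370 CPM. IL6 had 16.2 CPM in P9 and 0 in the other 5 tested sums. BNIP3 had 299 CPM in P9 and 113 CPM in the next sum, YAP1 168 and 74.4 CPM, and IL6ST 138 and 50.1 CPM. The other library of E7, P8, was highest for ARG1, with 95.9 CPM and 15.3 CPM in the next sum, and for S100A6, with 129 CPM and 54.8 CPM. Library P3 at E8 was highest for SULT1E1, with 30.0 CPM and 2.31 CPM in the next sum, and for MIA, with 4.28 CPM and 0.577 CPM. Library P4 at E8 was highest for GADD45B, with 49.96 CPM and 9.80 CPM in the next sum.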

How the results depend on the processing

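For the 319 tested results on single genes, 3942 values under the alternatives run stayed on their side of the threshold. Direction was not compared for genes called in neither setting. Of the rest, 471 values kept their direction but no longer passed, and 14 newly passed, among them CYP11A1 at E8 against E7. No called gene changed direction. Of the values without a test, 132 differed by less than the spread between sums or not at all and 36 moved by more or had no such spread. Counts of called genes depended more on the setting; the cause was not tested. For E7 to E10 against E6 there were 1176, but 766 without trended dispersion, 334 with only the groups compared and 2082 with DESeq2, and 308 to 2239 when 1 library was left out. For E12 to E14 against E7 to E10 there were 2036, but 1134 with only the groups compared and 3225 with DESeq2, and 1212 to 2493 with 1 library left out. For E7 against E6 there were 174, but 393 with DESeq2 size factors, 697 without a filter on low counts, 76 without trended dispersion, 3 with only the groups compared and 1613 with DESeq2, and 6 to 2163 with 1 library left out. For E8 against E7 there were 7, but 187 without a filter, 59 with sums of at least 3 cells, 1 with only the groups compared and 600 with DESeq2, and 0 to 1056 with 1 library left out. For E10 against E8 there were 30, but 165 without a filter, 9 without trended dispersion, 10 with the library as a replicate block, 242 with only the groups compared and 178 with DESeq2, and 0 to 9 with 1 library left out. For E10 against E7 there were 226, but 465 without a filter, 118 without trended dispersion, 43 with only the groups compared and 845 with DESeq2, and 36 to 737 with 1 library left out. Against hypoblast there were 2214, with 2004 without the replicate block and 1668 to 2683 with 1 library left out. Against epiblast there were 1049, with 672 without trended dispersion, 775 without the replicate block, 1631 with DESeq2 and 302 to 943 with 1 library left out. None of the other comparisons between days could be estimated with the library as a block in the fit of all groups. No paired analysis was therefore made for them. In trophectoderm, E12 to E14 and E7 to E10 shared P9 alone and the rest shared no library. The tested sums of E10 and E8 shared none either. Sums of at least 10 cells gave no fit, and cells with at least 6000 genes gave none for E7 or for epiblast. Where 1 sum was left in a group, it was assumed to vary like the others. On simulated data with a log2 fold of 1, 8.96% of changed genes were recovered for E7 to E10 against E6 and 1.49% for E7 against E6, so smaller differences were mostly not detectable.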
